A study of Mus musculus with 16 samples.

Results

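The 44 interferon-stimulated genes described here are known targets of interferon signalling, grouped by role into 4 transcription factors, 4 IFIT genes, 5 OAS genes, 9 direct antiviral effectors, 7 genes of ISG15 conjugation and ubiquitin ligases, 3 guanylate-binding proteins, 3 PARP genes and 9 IFI and other genes. They are 44 of the 49585 rows of each count table, found by mapping the Ensembl identifiers to gene symbols. The genes were listed with the values of these same libraries known, in particular those of the AMPK-KO cells at d8 and of the TET2 clones, so values from those libraries are given as a description. Where a comparison of those libraries is counted, the share of all genes called is given with it. No p is given there for a single gene of the list, and the count is not evidence about the list. Adjusted p-values of single listed genes are given only at d0 and in WT differentiation. They come from a fit whose estimate of spread takes in the AMPK-KO d8 libraries.

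Interferons are secreted proteins that a cell releases when its sensors meet foreign or misplaced nucleic acid. Type I interferon binds the IFNAR receptor, the kinases JAK1 and TYK2 then phosphorylate STAT proteins, STAT2 among them, and these join IRF9 in a complex that binds interferon-stimulated response elements in promoters. The genes switched on in this way bind viral RNA, degrade it, tag proteins with ISG15, or feed back on the pathway itself, and most cell types, myoblasts among them, can induce them.

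The study measured RNA in C2C12 cells, a clonal line of mouse myoblasts that form myotubes once serum is reduced, to ask what loss of the energy sensor AMPK and a change in the DNA demethylase TET2 do to muscle differentiation. A first table held wild-type (WT) cells and cells with both catalytic subunits of AMPK, AMPKα1 and AMPKα2, knocked out by CRISPR-Cas9 (AMPK-KO), each as myoblasts grown in fetal bovine serum (d0) and after differentiation in equine serum (d8), with 2 libraries per group. A second table held AMPK-/- cells carrying a FLAG-BirA tag, knocked in with an EGFP coding sequence, at the endogenous *Tet2* locus, with the TET2 sequence either wild type (TET2-WT) or S97E, a serine-to-glutamate change that mimics phosphorylation (TET2-S97E). There were 2 clones of each and 2 libraries per clone, all undifferentiated, so every TET2 library shared the AMPK deletion and the tag, and a clone stands for 1 isolated line. Whether both AMPK-KO libraries at each time came from a single knockout line, and whether replicates were separate cultures, is not in the labels. The study describes independent AMPK-KO lines in its sequencing figures, but no label ties a library to a line, so p-values measure only the spread between these libraries, which may be technical.

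Library totals ran from 17883417 to 24663079 counts in the first table and from 19801909 to 37790358 in the second. Levels below are CPM, counts scaled to a common library size, with the libraries of each table scaled on their own, so the tables were never tested against each other and any order over all 16 libraries sets side by side levels that were scaled apart. A gene at 3 counts stood at 0.0794 to 0.165 CPM depending on the library, and a count of 0 allows a level up to that. In these bulk libraries, fewer cells that express a gene and less RNA per cell cannot be told apart.

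The targeted genes were read first as a check on the labels. *Prkaa1*, which encodes AMPKα1, was at 158 and 159 CPM in WT d0, 79.6 and 78.0 in AMPK-KO d0, 126 and 125 in WT d8 and 83.3 and 82.4 in AMPK-KO d8. *Prkaa2*, which encodes AMPKα2, was at 1.69 and 1.79 CPM in WT d0, 0.209 and 0.42 in AMPK-KO d0, 6.22 and 10.1 in WT d8 and 1.26 and 0.825 in AMPK-KO d8. Both were lower in every AMPK-KO library than in both WT libraries of the same day, AMPK-KO d8 replicate 1 included. Transcripts of an edited gene can still be counted, so these levels check the labels only in part. *Tet2* was at 22.6 to 58.4 CPM in the 4 TET2-WT libraries and at 7.88 to 22.0 in the 4 TET2-S97E libraries, which does not check the S97E change itself.

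One library stood apart. The 44 genes together took 0.391% of all counts in AMPK-KO d8 replicate 1 and between 0.0435% and 0.0709% in each of the 15 others. Their summed level was 3926 CPM there and 685 in AMPK-KO d8 replicate 2. It was 593.5 and 442.2 CPM in WT d0, 492.8 and 471.1 in AMPK-KO d0, 613.4 and 577 in WT d8, 621 and 649 in TET2-WT clone 1, 572 and 661.1 in clone 2, 566.3 and 610.1 in TET2-S97E clone 1 and 682.6 and 694.1 in clone 2. The ratio of the 2 AMPK-KO d8 libraries was 5.73 (95% interval 5.63 to 5.83, for counting error only), while the ratio of replicate 1 to replicate 2 within the 7 other groups lay between 0.865 and 1.34. Because the libraries of AMPK-KO d8 disagree in this way, no mean over them is given, and comparisons with WT d8 are stated with and without replicate 1. That library also had the largest total in its table, and its mitochondrial share of 0.977% lay within the table's range of 0.568% to 1.43%.

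**Figure D1:**
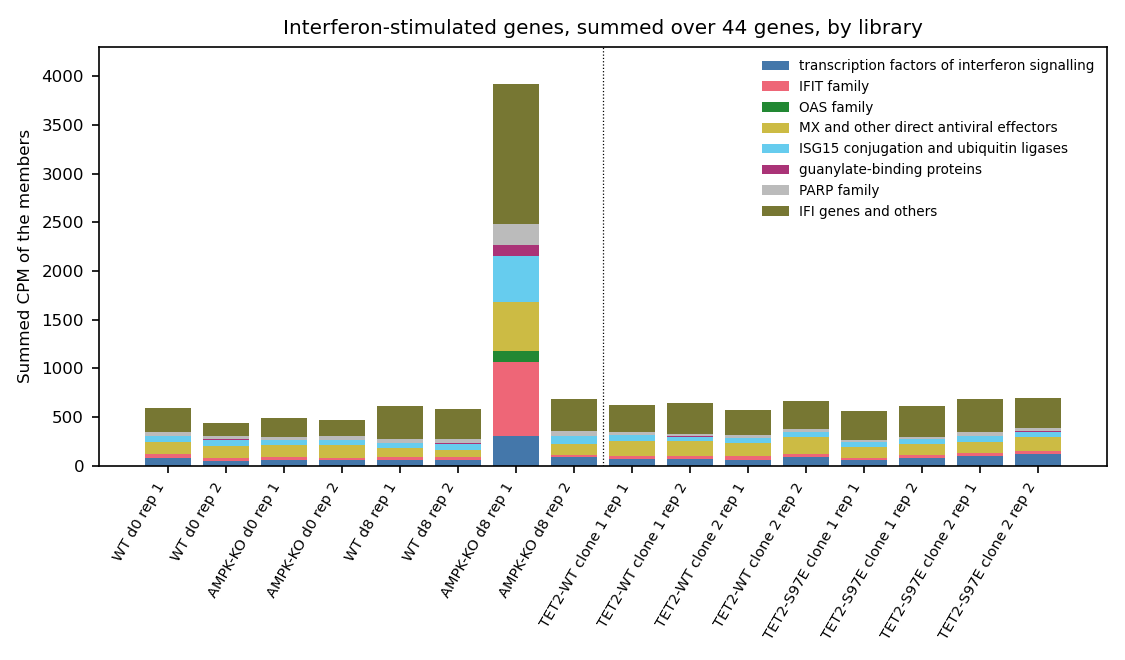
Summed CPM of the 44 interferon-stimulated genes (vertical axis) in each of the 16 libraries (horizontal axis), stacked by role group, with a dotted line between the tables, which were scaled separately. AMPK-KO d8 replicate 1 reaches 3926 CPM and the other 15 libraries lie between 442.2 and 694.1 CPM.

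Several of the 44 genes, which were listed as interferon targets, carry the core of the interferon-stimulated response element close to their start. The motif searched was GAAA, any 2 bases and GAAA again, on both strands (read in reverse as TTTC, 2 bases and TTTC), in RefSeq promoters of build GRCm38.p6 that span 250 bases before to 50 bases after each start. A promoter was found for 34 of the 44 genes. The 6 stretches below were chosen because they show the motif singly, in pairs and in overlapping runs in genes of different roles, and the bases of each match are in capitals.
*Ifit1*, chr19:34640760-34640838, plus strand: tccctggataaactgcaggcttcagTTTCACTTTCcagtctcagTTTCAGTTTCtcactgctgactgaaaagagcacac
*Ifit3*, chr19:34583348-34583441, plus strand: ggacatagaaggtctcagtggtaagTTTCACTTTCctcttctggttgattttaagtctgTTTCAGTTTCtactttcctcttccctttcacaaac
*Isg15*, chr4:156200850-156200921, minus strand: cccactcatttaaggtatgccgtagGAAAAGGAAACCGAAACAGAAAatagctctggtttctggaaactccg
*Oas1a*, chr5:120907526-120907570, minus strand: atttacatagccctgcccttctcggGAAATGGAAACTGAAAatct
*Gbp2*, chr3:142620579-142620638, plus strand: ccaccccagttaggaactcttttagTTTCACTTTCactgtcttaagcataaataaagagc
*Bst2*, chr8:71537562-71537627, minus strand: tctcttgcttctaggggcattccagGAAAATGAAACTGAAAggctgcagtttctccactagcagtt
The *Ifit3* stretch and the one upstream of *Ifit3b* at chr19:34607744-34607837 were identical over 94 bases. *Ifit1* and *Ifit3* had 2 separate matches each, *Gbp2* had 1, and the matches in *Isg15*, *Oas1a* and *Bst2* overlapped.

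At least 1 match was present in 15 of the 34 genes (44.1%, 95% Wilson interval 28.9% to 60.5%), against 1079 of the 27025 genes with a promoter (3.99%). A longer motif, which is the shorter one followed directly by CT, was present in 10 of the 34 (29.4%) and in 0.303% of all genes. Among the 15 genes with a match, the median ratio between the AMPK-KO d8 libraries was 22.3 (4.56 to 147) with *Oas1a*, *Oas3* and *Rsad2* at their lower bounds, and 36.8 over those with any count in replicate 2. The median was 5.35 (1.06 to 118) in the 18 measured genes without one, and the ranges overlap. In the 10 genes for which no promoter was found it was 8.43 (1.2 to 82.3). At least 4-fold were 15 of 15 genes with a match, 10 of 18 without and 7 of 10 with no promoter. The ratios were known when the genes were listed, *Ifit3* and *Ifit3b* share 1 stretch, and a link between match and ratio was not tested. *Ifi44*, at a ratio of 118, had no match in its window. A match describes letters in a window and is not a measured binding site.

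The transcription factors of the pathway came first in the order of roles. *Irf1* encodes a factor induced most strongly by interferon gamma, and it was at 33 and 23.9 CPM in WT d0, 39.2 and 33.7 in AMPK-KO d0, 23.3 and 21.7 in WT d8, and 46.9 and 44.5 in AMPK-KO d8 replicates 1 and 2. In the TET2 lines *Irf1* was at 33 and 34.3 CPM in TET2-WT clone 1, 33.6 and 41 in TET2-WT clone 2, 24.2 and 28.4 in TET2-S97E clone 1, and 49.3 and 52.6 in TET2-S97E clone 2. It was one of 5 genes whose highest value was not in AMPK-KO d8 replicate 1, both AMPK-KO d8 libraries lay above both WT d8 libraries, and both libraries of TET2-S97E clone 2 lay above the other 6 TET2 libraries. *Stat2*, which encodes a subunit of the complex that type I interferon activates, was at 33.1 and 20.5 CPM in WT d0, 16.3 and 17.7 in AMPK-KO d0, 22 and 22.2 in WT d8, and 112 and 24.5 in AMPK-KO d8 replicates 1 and 2. For *Stat2* in the TET2 lines the values were 21.7 and 20.4 CPM in TET2-WT clone 1, 17.1 and 32 in TET2-WT clone 2, 22.1 and 38.6 in TET2-S97E clone 1, and 29.9 and 50.1 in TET2-S97E clone 2. AMPK-KO d8 replicate 1 was the highest of the 16 at 2.22 times the next, and replicate 2 lay within the range of the rest. *Irf7*, which encodes a factor for interferon genes themselves, was at 80.8 CPM in replicate 1, 3.06 in replicate 2 and 0.627 to 3.55 over all 15 others. *Irf9*, which encodes the DNA-binding subunit of the same complex, was at 68.2 CPM against 5.2 to 16.4.

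The IFIT proteins bind viral RNA with incomplete caps and hold back its translation. *Ifit1* was at 0.771 and 0.65 CPM in WT d0, 0.366 and 0.794 in AMPK-KO d0, 0.495 and 1.08 in WT d8, and 332 and 8.3 in AMPK-KO d8 replicates 1 and 2. *Ifit1* in the TET2 lines was at 5.66 and 3.94 CPM in TET2-WT clone 1, 3.98 and 2.8 in TET2-WT clone 2, 0.151 and 0.745 in TET2-S97E clone 1, and 3.64 and 1.6 in TET2-S97E clone 2. Its 2 AMPK-KO d8 libraries were both above both WT d8 libraries but differed 40-fold from each other (95% counting interval 34.4 to 46.9). *Ifit2* was at 42.4 and 27.9 CPM in WT d0, 23.1 and 22.2 in AMPK-KO d0, 28 and 24.1 in WT d8, and 143 and 13.5 in AMPK-KO d8 replicates 1 and 2. The TET2 values of *Ifit2* were 28.1 and 20.8 CPM in TET2-WT clone 1, 35.8 and 23 in TET2-WT clone 2, 24.7 and 25.5 in TET2-S97E clone 1, and 22 and 22.7 in TET2-S97E clone 2. Here AMPK-KO d8 replicate 2 was the lowest of all 16 libraries and replicate 1 the highest, 10.6-fold apart (9.34 to 12). *Ifit3* was at 2.51 and 0.325 CPM in WT d0, 0.628 and 0.187 in AMPK-KO d0, 3.69 and 2.16 in WT d8, and 221 and 2.23 in AMPK-KO d8 replicates 1 and 2. *Ifit3* among the TET2 clones was at 1.09 and 2.04 CPM in TET2-WT clone 1, 2.7 and 2.48 in TET2-WT clone 2, 0.554 and 0.842 in TET2-S97E clone 1, and 6.97 and 5.05 in TET2-S97E clone 2. AMPK-KO d8 replicate 2 lay between the WT d8 libraries, replicate 1 was 98.8-fold higher (74.0 to 135), and TET2-S97E clone 2 was above every other TET2 library. *Ifit3b* was at 0.337 and 0.0542 CPM in WT d0, 0 and 0.0467 in AMPK-KO d0, 0.826 and 1.08 in WT d8, and 57 and 0.388 in AMPK-KO d8 replicates 1 and 2. Its values in the TET2 lines were 0.227 and 0.423 CPM in TET2-WT clone 1, 0.366 and 0.39 in TET2-WT clone 2, 0 and 0.0324 in TET2-S97E clone 1, and 0.809 and 1.11 in TET2-S97E clone 2. Here AMPK-KO d8 replicate 2 was below both WT d8 libraries and replicate 1 above them, 147-fold apart (74.3 to 341), TET2-S97E clone 2 was again above every other TET2 library, and reads could have been split between these near copies.

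The OAS enzymes make the oligoadenylates that activate RNase L. *Oasl2*, an OAS-like gene, was at 1.06 and 2.33 CPM in WT d0, 1.2 and 2.34 in AMPK-KO d0, 0.936 and 2.3 in WT d8, and 99.1 and 2.91 in AMPK-KO d8 replicates 1 and 2. *Oasl2* across the TET2 clones was at 1.04 and 0.873 CPM in TET2-WT clone 1, 0.504 and 1.52 in TET2-WT clone 2, 0.856 and 0.615 in TET2-S97E clone 1, and 1.72 and 2.7 in TET2-S97E clone 2. The other 15 libraries spanned 0.504 to 2.91 CPM, and AMPK-KO d8 replicate 1 was 34.0-fold above replicate 2 (26.3 to 44.7). *Oas2* had 241 counts in AMPK-KO d8 replicate 1 and 1 in replicate 2, and no other library had more than 3. *Oas1a* had 134 and 2 counts and *Oas3* had 71 and 0 in the same libraries. These 3 genes were above 3 counts in AMPK-KO d8 replicate 1 and in no other library, which puts them at least 67.4-fold, 37.5-fold and 19.9-fold above replicate 2 when that library is set to 3 counts. *Oasl1* was different, with 15 counts in replicate 1, 5 in replicate 2 (ratio 2.52, interval 0.870 to 8.86) and its highest level, 0.704 CPM, in WT d0 replicate 2.

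Among the direct antiviral effectors, the 2 of highest mean CPM had the smallest ratios between the AMPK-KO d8 libraries. *Samhd1*, which encodes an enzyme that breaks down the nucleotides viruses need for DNA synthesis, was at 76.8 and 85.1 CPM in WT d0, 73.2 and 82.4 in AMPK-KO d0, 49.3 and 38.4 in WT d8, and 90 and 63.1 in AMPK-KO d8 replicates 1 and 2. *Samhd1* in the TET2 lines was at 95.4 and 93.5 CPM in TET2-WT clone 1, 75.2 and 98.7 in TET2-WT clone 2, 78.2 and 75.5 in TET2-S97E clone 1, and 64.1 and 92.4 in TET2-S97E clone 2. Both WT d8 libraries were below both WT d0 libraries, and AMPK-KO d8 replicate 1 was within the range of the others. *Adar*, which encodes an enzyme that edits adenosine to inosine in double-stranded RNA, was at 38.8 and 28.8 CPM in WT d0, 43.7 and 35.1 in AMPK-KO d0, 26.7 and 24.6 in WT d8, and 98.6 and 28.4 in AMPK-KO d8 replicates 1 and 2. For *Adar* in the TET2 lines the values were 34.9 and 34.8 CPM in TET2-WT clone 1, 37.8 and 50.2 in TET2-WT clone 2, 19.8 and 26.5 in TET2-S97E clone 1, and 31.1 and 36.7 in TET2-S97E clone 2. AMPK-KO d8 replicate 1 was the highest, 3.48-fold above replicate 2 (3.18 to 3.81). *Bst2*, which encodes tetherin, a protein that holds budding virus at the cell surface, was at 227 CPM in replicate 1 and 3.66 to 17.0 in all the others. *Mx2*, a dynamin-like antiviral GTPase gene, was at 38.9 CPM there and at most 0.825 elsewhere. *Rtp4* was at 39.6 against 1.15 to 12.1 CPM and *Ddx60*, a helicase gene, at 4.77 against at most 0.243. *Mx1* had 24 and 0 counts and *Rsad2*, which encodes viperin, 30 and 0 in the 2 AMPK-KO d8 libraries, and *Cmpk2* did not exceed 3 counts in any library.

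ISG15 is a ubiquitin-like protein that is joined to other proteins by an enzyme chain and removed by USP18. *Isg15* was at 1.4 and 0.542 CPM in WT d0, 1.26 and 1.54 in AMPK-KO d0, 1.1 and 2.06 in WT d8, and 213 and 5.78 in AMPK-KO d8 replicates 1 and 2. *Isg15* among the TET2 clones was at 3.9 and 4 CPM in TET2-WT clone 1, 2.98 and 2.59 in TET2-WT clone 2, 0.453 and 1.07 in TET2-S97E clone 1, and 3.44 and 1.92 in TET2-S97E clone 2. Replicate 1 of AMPK-KO d8 was 36.8-fold above replicate 2 (30.7 to 44.5), and replicate 2 was above both WT d8 libraries. *Usp18* was at 0.241 and 0 CPM in WT d0, 0.418 and 0.14 in AMPK-KO d0, 0.055 and 0.0938 in WT d8, and 64 and 0.777 in AMPK-KO d8 replicates 1 and 2. In TET2 lines *Usp18* was at 0.181 and 0.0794 CPM in TET2-WT clone 1, 0.275 and 0.355 in TET2-WT clone 2, 0.0503 and 0.0971 in TET2-S97E clone 1, and 1.01 and 0.488 in TET2-S97E clone 2. It was near the detection limit in most libraries and 82.3-fold apart (50.5 to 144) between those of AMPK-KO d8. *Trim25*, which encodes a ubiquitin ligase of the RNA sensor RIG-I, was at 34.2 and 45 CPM in WT d0, 40.7 and 40.1 in AMPK-KO d0, 36.9 and 33 in WT d8, and 81.2 and 46.3 in AMPK-KO d8 replicates 1 and 2. The TET2 lines had *Trim25* at 35.5 and 30 CPM in TET2-WT clone 1, 35 and 35.1 in TET2-WT clone 2, 32.8 and 34.6 in TET2-S97E clone 1, and 30.3 and 28.9 in TET2-S97E clone 2. Replicate 1 was only 1.75 times the next highest library. *Dtx3l*, which encodes a ubiquitin ligase that works with PARP9, was at 13.1 and 9.86 CPM in WT d0, 11.8 and 13.1 in AMPK-KO d0, 14.1 and 19.3 in WT d8, and 94.7 and 24.9 in AMPK-KO d8 replicates 1 and 2. *Dtx3l* in the TET2 lines was at 9.7 and 9.69 CPM in TET2-WT clone 1, 8.47 and 10.9 in TET2-WT clone 2, 12.3 and 10.7 in TET2-S97E clone 1, and 16.7 and 14.1 in TET2-S97E clone 2. AMPK-KO d8 replicate 1 was 3.80-fold above replicate 2 (3.45 to 4.19), which was in turn above all 14 other libraries. *Uba7*, which encodes the activating enzyme for ISG15, was at 18.9 CPM against 0.704 to 6.27, *Trim30a* at 2.61 against at most 0.563 and *Herc6*, which encodes the mouse ISG15 ligase, at 4.32 against 0.194 to 5.31.

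Guanylate-binding proteins are GTPases that act on pathogens inside the cell. *Gbp2* was at 1.93 and 1.57 CPM in WT d0, 0.837 and 1.07 in AMPK-KO d0, 4.13 and 5.63 in WT d8, and 44 and 4.76 in AMPK-KO d8 replicates 1 and 2. *Gbp2* in the TET2 lines was at 1.04 and 0.979 CPM in TET2-WT clone 1, 0.366 and 0.78 in TET2-WT clone 2, 0.252 and 0.194 in TET2-S97E clone 1, and 1.87 and 1.07 in TET2-S97E clone 2. The WT d8 libraries and AMPK-KO d8 replicate 2 lay close together, and replicate 1 was 9.25-fold above replicate 2 (7.52 to 11.5). *Gbp3* was at 1.01 and 0.325 CPM in WT d0, 0 and 0.374 in AMPK-KO d0, 0.661 and 0.891 in WT d8, and 45 and 1.21 in AMPK-KO d8 replicates 1 and 2. Among the TET2 clones *Gbp3* was at 0.272 and 0.291 CPM in TET2-WT clone 1, 0.137 and 0.213 in TET2-WT clone 2, 0.201 and 0.0971 in TET2-S97E clone 1, and 0.455 and 0.326 in TET2-S97E clone 2. Only AMPK-KO d8 replicate 1 was above 1.21 CPM, and *Gbp7* likewise was at 17.5 CPM there and at most 1.78 elsewhere. The PARP genes encode ADP-ribosyltransferases or their inactive relatives. *Parp12* was at 31.3 and 23.3 CPM in WT d0, 14.3 and 24.2 in AMPK-KO d0, 26.4 and 22.4 in WT d8, and 81.1 and 23.6 in AMPK-KO d8 replicates 1 and 2. *Parp12* across the TET2 clones was at 18.4 and 15.6 CPM in TET2-WT clone 1, 16.2 and 13 in TET2-WT clone 2, 11.3 and 8.71 in TET2-S97E clone 1, and 18.4 and 15.2 in TET2-S97E clone 2. *Parp9* was at 9.45 and 7.32 CPM in WT d0, 9.26 and 12.4 in AMPK-KO d0, 10.2 and 13.4 in WT d8, and 76.3 and 19.4 in AMPK-KO d8 replicates 1 and 2. The high library was again AMPK-KO d8 replicate 1, with ratios to replicate 2 of 3.43 for *Parp12* and 3.93 for *Parp9*. In the TET2 lines *Parp9* was at 12.5 and 11.2 CPM in TET2-WT clone 1, 10.2 and 9.79 in TET2-WT clone 2, 10.5 and 11.3 in TET2-S97E clone 1, and 16 and 14.9 in TET2-S97E clone 2. *Parp14* was at 63.8 CPM in AMPK-KO d8 replicate 1 and 1.21 to 9.42 in the others. *Parp9* and *Dtx3l* overlap by 682 bases on opposite strands, and as the strand setting of the counting is not given in the sources used here, reads in the overlap cannot be told apart.

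The remaining genes held the most abundant transcripts. *Tor3a*, which encodes an ATPase of the endoplasmic reticulum, was at 89.4 and 49.7 CPM in WT d0, 86.9 and 80.1 in AMPK-KO d0, 168 and 137 in WT d8, and 450 and 151 in AMPK-KO d8 replicates 1 and 2. *Tor3a* in the TET2 lines was at 123 and 127 CPM in TET2-WT clone 1, 128 and 130 in TET2-WT clone 2, 170 and 192 in TET2-S97E clone 1, and 108 and 99.1 in TET2-S97E clone 2. Both AMPK-KO d8 libraries and both WT d8 libraries were above the d0 libraries of the same genotype, and replicate 1 of AMPK-KO d8 was 2.34 times the next highest library. *Lgals3bp*, which encodes a secreted glycoprotein that binds galectins, was at 23.8 and 9.97 CPM in WT d0, 36.2 and 19.4 in AMPK-KO d0, 28.8 and 27 in WT d8, and 459 and 45.2 in AMPK-KO d8 replicates 1 and 2. For *Lgals3bp* among the TET2 clones the values were 57.9 and 67.5 CPM in TET2-WT clone 1, 39.8 and 64.6 in TET2-WT clone 2, 42.8 and 49.7 in TET2-S97E clone 1, and 64.3 and 64.7 in TET2-S97E clone 2. AMPK-KO d8 replicate 1 was 10.1-fold above replicate 2 (9.48 to 10.9). *Ifi44* was at 0 and 0 CPM in WT d0, 0.314 and 0.14 in AMPK-KO d0, 0.055 and 0.141 in WT d8, and 114 and 0.971 in AMPK-KO d8 replicates 1 and 2. *Ifi44* in the TET2 lines was at 0.227 and 0.0265 CPM in TET2-WT clone 1, 0.0916 and 0.213 in TET2-WT clone 2, 0 and 0.0971 in TET2-S97E clone 1, and 1.01 and 0.26 in TET2-S97E clone 2. The gene was at 1.01 CPM or less in 15 libraries and had 2802 counts in AMPK-KO d8 replicate 1, 118-fold above replicate 2 (76.0 to 193).

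*Ifi27l2a*, which encodes a small membrane protein, was at 1.21 and 0.325 CPM in WT d0, 0.628 and 1.07 in AMPK-KO d0, 0.771 and 1.64 in WT d8, and 163 and 4.66 in AMPK-KO d8 replicates 1 and 2. *Ifi27l2a* among the TET2 clones was at 4.76 and 6.06 CPM in TET2-WT clone 1, 1.97 and 2.13 in TET2-WT clone 2, 2.32 and 4.05 in TET2-S97E clone 1, and 4.95 and 6.22 in TET2-S97E clone 2. Outside AMPK-KO d8 replicate 1 the TET2 libraries and AMPK-KO d8 replicate 2 were the higher ones. *Sp100*, which encodes a protein of PML nuclear bodies, was at 4.58 and 1.57 CPM in WT d0, 1.15 and 0.701 in AMPK-KO d0, 4.79 and 4.88 in WT d8, and 17.5 and 1.02 in AMPK-KO d8 replicates 1 and 2. The values of *Sp100* in the TET2 lines were 0.499 and 0.344 CPM in TET2-WT clone 1, 0.733 and 2.84 in TET2-WT clone 2, 0.101 and 0.13 in TET2-S97E clone 1, and 1.26 and 1.04 in TET2-S97E clone 2. AMPK-KO d8 replicate 2 was below both WT d8 libraries and replicate 1 above them, and TET2-S97E clone 1 was the lowest of the clones. *Xaf1*, which encodes a partner of the apoptosis inhibitor XIAP, was at 6.84 and 6.5 CPM in WT d0, 0.68 and 0.654 in AMPK-KO d0, 17.8 and 20.9 in WT d8, and 48.1 and 3.16 in AMPK-KO d8 replicates 1 and 2. *Xaf1* in the TET2 lines was at 2.54 and 3.65 CPM in TET2-WT clone 1, 1.05 and 1.91 in TET2-WT clone 2, 1.26 and 1.13 in TET2-S97E clone 1, and 3.74 and 1.86 in TET2-S97E clone 2. Both AMPK-KO d0 libraries were below both WT d0 libraries, and at d8 the WT libraries lay between the 2 AMPK-KO libraries. *Lgals9*, which encodes galectin-9, was at 46.0 and 26.9 CPM in WT d0, 6.96 and 2.85 in AMPK-KO d0, 27.1 and 19.9 in WT d8 and 16.3 and 0.728 in AMPK-KO d8. For *Lgals9* in the TET2 lines the values were 5.26 and 6.8 CPM in TET2-WT clone 1, 7.51 and 2.98 in TET2-WT clone 2, 7.15 and 6.51 in TET2-S97E clone 1, and 30.6 and 24.6 in TET2-S97E clone 2. It was the one gene of the 38 tested with both AMPK-KO d8 libraries below both WT d8 libraries, and TET2-S97E clone 2 was above every other TET2 library. *Ifi27*, a relative of *Ifi27l2a*, was at 57.6 and 30.2 CPM in WT d0, 48.2 and 39.2 in AMPK-KO d0, 75.2 and 82.1 in WT d8, and 109 and 90.8 in AMPK-KO d8 replicates 1 and 2. *Ifi27* among the TET2 clones was at 55.2 and 73.3 CPM in TET2-WT clone 1, 59.3 and 59.3 in TET2-WT clone 2, 58.3 and 47.6 in TET2-S97E clone 1, and 98.6 and 89.6 in TET2-S97E clone 2. Both genotypes were higher at d8 than at d0, and TET2-S97E clone 2 was above the other TET2 libraries.

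**Figure D2:**
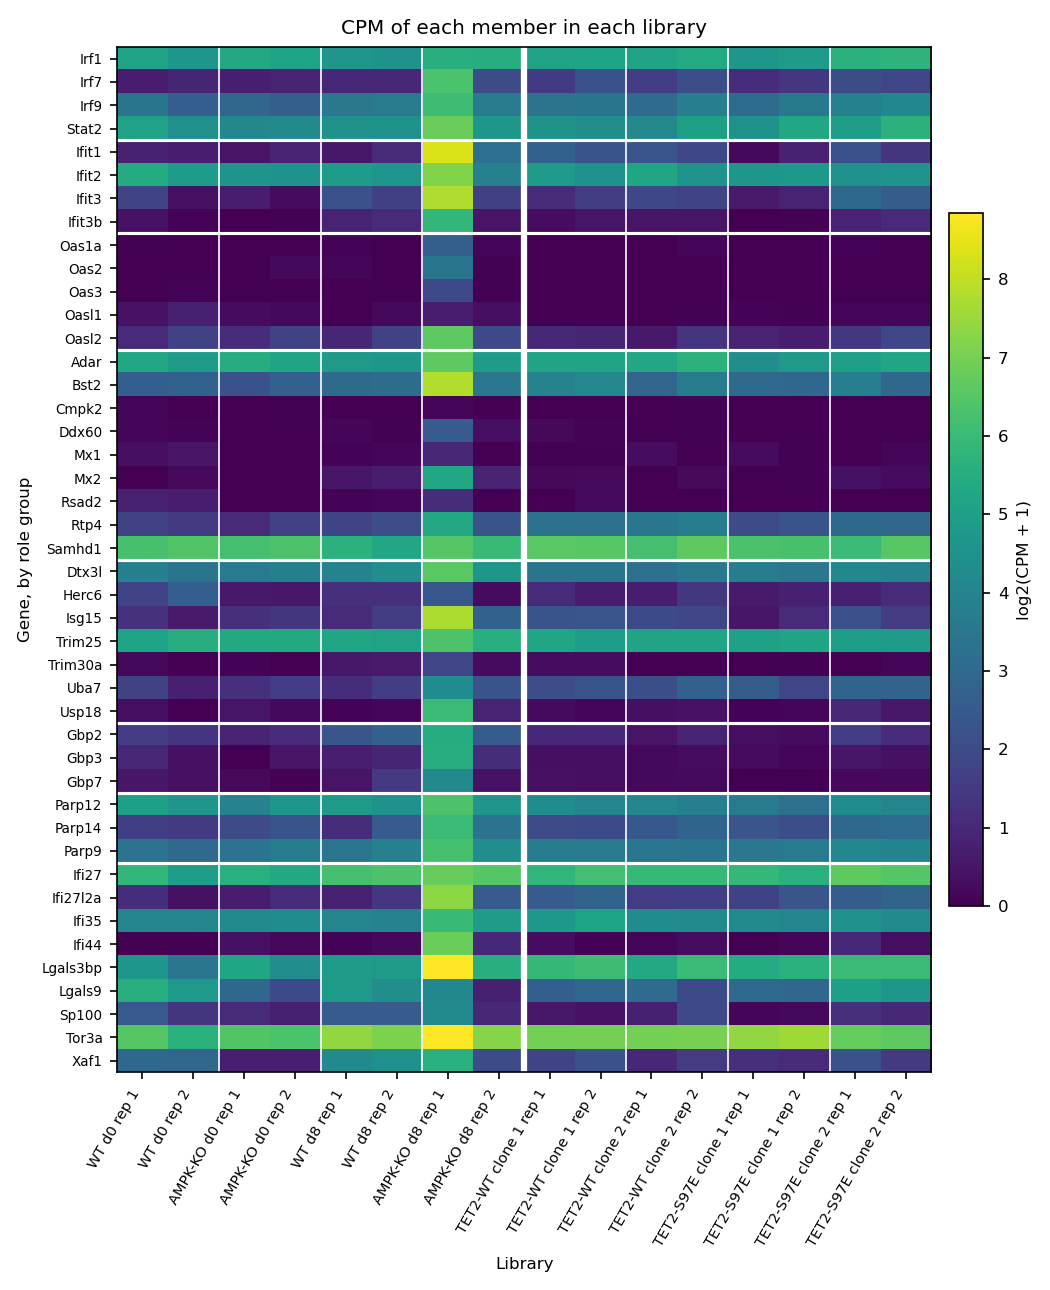
Level of each of the 44 genes (rows, by role group) in each library (columns) as log2(CPM + 1), with the tables separated by the thick white line. The column of AMPK-KO d8 replicate 1 is the brightest for 39 of the 44 genes, and rows such as *Samhd1*, *Irf1* and *Trim25* are bright throughout.

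Levels of different genes were compared as TPM, in which counts are divided by exon length before each library is scaled to the same sum. The highest of the 44 was *Ifi27* in 13 libraries (71.3 to 221 TPM), *Tor3a* in both libraries of TET2-S97E clone 1 (134 and 147 TPM) and *Ifi27l2a* in AMPK-KO d8 replicate 1 (1270 TPM). In that library *Isg15* followed at 1010 TPM, *Bst2* at 906, *Lgals3bp* at 580, *Ifit3* at 455 and *Ifit1* at 451. On the same scale *Ifi27* was at 268 TPM there and 218 in replicate 2. At least 10 TPM was reached by 34 of the 44 genes in AMPK-KO d8 replicate 1 and by 11 to 18 in each of the others. Above 3 counts there were 43 genes in AMPK-KO d8 replicate 1, 38 in replicate 2 and 29 to 36 in the other libraries, with 27 genes above it in all 16.

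Between the AMPK-KO d8 libraries, 32 of the 43 genes with at least 10 counts were at least 4-fold higher in replicate 1 and 0 were 4-fold lower. Over all 13784 genes with that many counts, 2.97% were 4-fold higher and 2.13% 4-fold lower. Both values are from 1 library against 1, so no test applies. *Stat2* (4.56-fold) and *Uba7* (4.92-fold) were just inside the 4-fold limit and *Parp9* (3.93-fold) and *Dtx3l* (3.80-fold) just outside. The smallest ratios were those of *Irf1* (1.06, interval 0.966 to 1.15), *Ifi27* (1.20), *Samhd1* (1.43), *Trim25* (1.75) and *Ifi35* (2.21). In the other 7 groups, at most 2 of the 27 to 34 genes compared differed 4-fold between replicates.

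**Figure D3:**
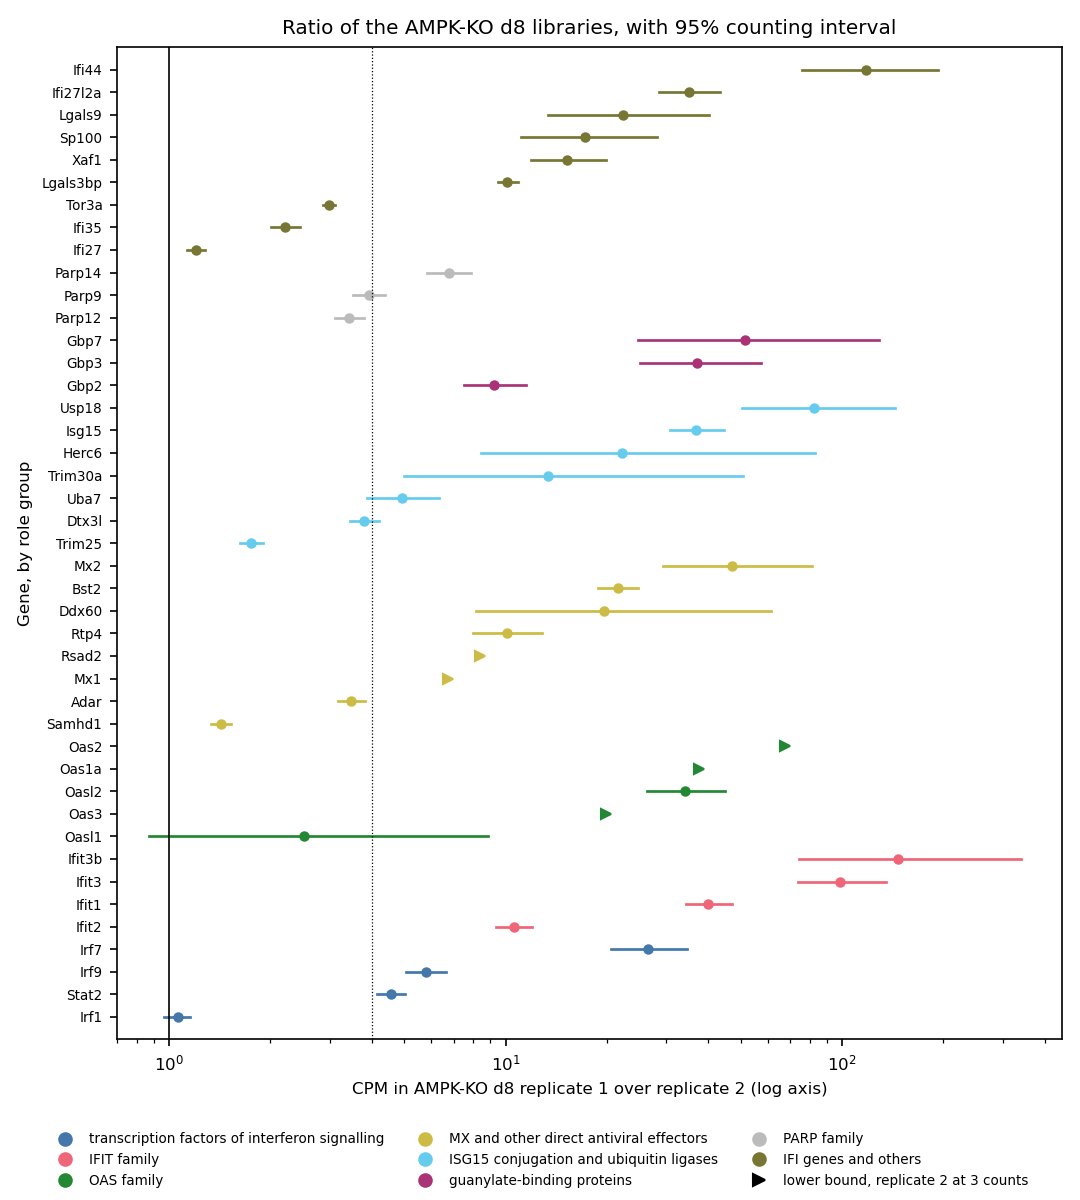
Ratio of CPM in AMPK-KO d8 replicate 1 over replicate 2 (log axis) for the 43 genes with at least 10 counts in replicate 1, coloured by role group, with 95% counting intervals as bars and arrows for the 5 genes at 3 counts or fewer in replicate 2, where the value is a lower bound. The dotted line is 4-fold, the solid line is 1, and the ratios run from 1.06 (*Irf1*) to 147 (*Ifit3b*).

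Of the 44 genes, 20 (45.5%) lie within 100 kb of another, in 8 clusters of mm10. *Ifit2*, *Ifit3*, *Ifit3b* and *Ifit1* span 99.3 kb at chr19:34550694-34650009, and their ratios between the AMPK-KO d8 libraries were 10.6, 98.8, 147 and 40. *Gbp7*, *Gbp3* and *Gbp2* span 108 kb at chr3:142530342-142638008, with ratios of 51.5, 37.1 and 9.25. Adjacent genes did not always share the size of the ratio. *Ifi27* and *Ifi27l2a* lie within 9.47 kb at chr12:103434211-103443680 and had ratios of 1.20 and 35.0, and *Oasl2* and *Oasl1*, at chr5:114896936-114937915, had 34.0 and 2.52.

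AMPK-KO and WT myoblasts were compared at d0 with edgeR's quasi-likelihood test over all 14329 genes that passed its filter on low counts, of which 3.52% were called at an adjusted p under 0.05, 0.698% higher and 2.83% lower. Of the 44 genes, 38 passed the filter and 0 were called. The median log2 fold change was −0.26 over these 38, −0.16 with *Mx2*, *Rsad2* and *Ifi44*, each at 0 counts in 1 group, set to the bound of 3 counts, and −0.00102 over all genes, with 16 of the 38 above 0. The median ran from −0.602 (without AMPK-KO d0 replicate 2) to −0.15 (without WT d0 replicate 1) with 1 library left out, and was −0.0364 with d0 libraries alone and 0.0228 over the 25 genes with at least 10 counts in every library. The AMPK-KO libraries lay above both WT libraries for 4 of the 38 genes (23.6% of all genes tested) and below both for 11 (25.7%). At an unadjusted p under 0.05 there were 4 genes, all lower in AMPK-KO, which is 0 higher and 4 lower of 38 beside 8.03% and 12.9% of all genes. *Xaf1* had a log2 fold change of −3.31 (SE 1.13, adjusted p = 0.160), *Lgals9* −2.90 (SE 1.13, adjusted p = 0.209) and *Herc6* −2.95 (SE 1.17, adjusted p = 0.215). *Rsad2* had 16 and 11 counts in WT d0 and 0 and 0 in AMPK-KO d0.

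The shared estimate of spread in that fit takes in the AMPK-KO d8 libraries. Without AMPK-KO d8 replicate 1, *Xaf1* (−3.33, SE 0.30, adjusted p = 0.00413 from edgeR), *Lgals9* (−2.92, SE 0.49, adjusted p = 0.0256) and *Herc6* (−2.96, SE 0.57, adjusted p = 0.0405) were called lower at d0, beside 3.45% of all genes, and 0 were called higher (0.619%). Without replicate 2 instead, these 3 genes and *Rsad2* were called lower (3.41% of genes) and 0 higher (0.657%). The d0 difference uses no d8 library, so sizes close to those above were fixed in advance and add nothing. With 1 AMPK-KO d8 library left out, the difference between those 2 libraries no longer enters the spread. It was large for *Xaf1* (48.1 and 3.16 CPM) and *Lgals9* (16.3 and 0.728 CPM), and the errors were smaller. These libraries were in view when the genes were listed, so such calls are descriptions, here and in WT differentiation. For *Xaf1*, *Lgals9*, *Herc6* and *Rsad2*, both AMPK-KO d0 libraries were below both WT d0 libraries.

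Differentiation of the WT cells was compared in the same fit, where 12.4% of genes were called and 6.58% were lower at d8. *Samhd1* fell by 0.88 on the log2 scale (SE 0.22, adjusted p = 0.0424), from 76.8 and 85.1 CPM to 49.3 and 38.4, and it was the one call among the 38 genes. This call was lost without any 1 library of WT d0, AMPK-KO d0 or WT d8, while the log2 fold change stayed between −1.1 and −0.74. Almost no genes at all were called without WT d0 replicate 2 or either WT d8 library. A lost call there says little about *Samhd1*. The median over the 38 genes was 0.46, against 0.01 over all genes, and 0.45 with *Ifi44*, at 0 counts in WT d0, at its bound. It was −0.00746 without WT d8 replicate 2, 0.0915 without WT d0 replicate 2 and 0.714 without WT d0 replicate 1. Both WT d8 libraries lay above both WT d0 libraries for 16 genes (31.3% of all genes tested) and below for 7 (30.2%). *Tor3a* (log2 fold change 1.13, SE 0.50, adjusted p = 0.172) and *Ifi27* (0.84, SE 0.30, adjusted p = 0.107) did not pass. Without AMPK-KO d8 replicate 1, *Xaf1* was called higher at d8 (1.51, SE 0.26, adjusted p = 0.016 from edgeR, beside 5.19% of genes) and *Samhd1* lower (adjusted p = 0.0286, beside 6.07%). Without replicate 2, *Xaf1* and *Gbp2* were called higher (5.61%) and *Samhd1* lower (5.42%).

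At d8, AMPK-KO libraries were set beside the same WT d8 libraries. In AMPK-KO d8 replicate 1, 37 of the 38 genes lay above both WT d8 libraries (43.3% of all genes tested did) and 1, *Lgals9*, lay below (39.2%). In replicate 2, 25 lay above (41.3%), among them *Isg15*, *Irf7*, *Ifit1* and *Parp14*, and 9 below (39%), among them *Ifit2*, *Gbp7*, *Sp100* and *Xaf1*. The fit with both libraries called 3 of the 38 genes, all higher (*Irf1*, *Ifi35* and *Ifit1*), beside 1.36% of all genes. With the replicate block, 2 of these 3 were still called. With replicate 1 left out the calls were 0 higher (0.353% of genes) and 2 lower, *Xaf1* and *Lgals9* (1.2%), and with replicate 2 left out 31 of 43 were higher (1.19%) and 0 lower (2.47%). The median log2 fold change was 2.38 with both, 0.48 without replicate 1 and 3.56 without replicate 2, against 0.04 over all genes with both. Since these libraries were in view when the genes were listed, the counts are descriptions. In the fit with both libraries, 2 of 4 fibroblast markers were called lower in AMPK-KO at d8, beside 3.98% of all genes. Those markers summed to 312 and 509 CPM in AMPK-KO d8 and to 1360 and 2870 in WT d8, and their part was not tested.

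The difference between the AMPK-KO effects at d8 and d0 was called for 0 of 14329 genes in edgeR, with 729 (5.09%) at an unadjusted p under 0.05, and for 60 (0.419%) in DESeq2, *Ifit1* and *Irf7* of the 44 among them. Without AMPK-KO d8 replicate 1 it was called for 4 genes (0.0266%), 0 of them among the 44, and without replicate 2 for 6 genes (0.0398%), 4 of them among the 44.

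The upstream parts of the pathway were examined in lists that hold none of the 44 genes. Among 20 interferon genes, *Ifnb1* had 9 counts and *Ifna4* 4 counts in AMPK-KO d8 replicate 1 and 0 in the 15 others, while *Ifng* had more in AMPK-KO d8 replicate 2 (0.68 CPM) than in replicate 1 (0.245). Of 9 receptor and kinase genes, 8 had enough counts and 0 differed 4-fold between these libraries, with ratios of 0.854 to 1.22. *Ifnar1*, for a subunit of the type I receptor, was at 110 and 103 CPM and *Jak1* at 201 and 215. The 8 signalling inhibitors had 0 as well, with a median ratio of 1.11.

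Other interferon targets outside the list were also higher in that library. Interferon-gamma GTPases and p200 genes were 4-fold higher in replicate 1 in 13 of 14 measured, led in level by *Irgm1* at 294 and 43.1 CPM. *Iigp1*, of the same family, was at 44.8 and 0.825 CPM. Of 33 other interferon-induced genes, 13 were 4-fold higher and 1 lower (*Epsti1*, 0.0408 and 0.728 CPM), with *Ifitm3*, the most abundant, at 581 and 285 CPM. Nucleic acid sensors were 4-fold higher in 5 of 12, for example *Dhx58* at 20.5 and 0.728 CPM. *Ifih1*, which encodes MDA5, was at 15.1 and 5.05 CPM, less than 4-fold apart. Antigen presentation genes were 4-fold higher in 4 of 10, among them *Tap1* at 11.6 and 1.17 CPM, while *B2m*, at 810 and 345 CPM, was less than 4-fold apart. Chemokines and NF-kB targets were so in 5 of 10, among them *Cxcl10* at 9.5 CPM against 0 counts and *Ccl2* at 28.7 against 3.2.

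Markers of cell types were read in the same libraries. Of 10 skeletal muscle markers, 7 were 4-fold lower in AMPK-KO d8 replicate 1 than in replicate 2 and 0 higher. Their summed level was 2970 CPM in replicate 1, 13000 in replicate 2 and 8400 and 11800 in WT d8, with *Des* the most abundant by its mean over the 16 libraries, and all 10 were above 3 counts in these 4 libraries. Between these 2 libraries the level of muscle genes was lower where that of the interferon-stimulated genes was higher, and its part in the result was not tested. Of 7 macrophage and leukocyte markers, 3 were above 3 counts in each AMPK-KO d8 library, their sum was 18.0 CPM in replicate 1 and 26.8 in replicate 2, *Cd14* was the most abundant, and *Ptprc*, *Adgre1*, *Itgam* and *Tyrobp* had 0 counts in both. Endothelial markers summed to 4.73 and 7.33 CPM, with 1 of 4 above 3 counts, and fibroblast markers, led by *Dcn*, to 312 and 509 CPM, with 4 of 5. As a check on the myoblast label, *Des*, which encodes desmin, was at 691 CPM or more in all 16 libraries.

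**Figure D4:**
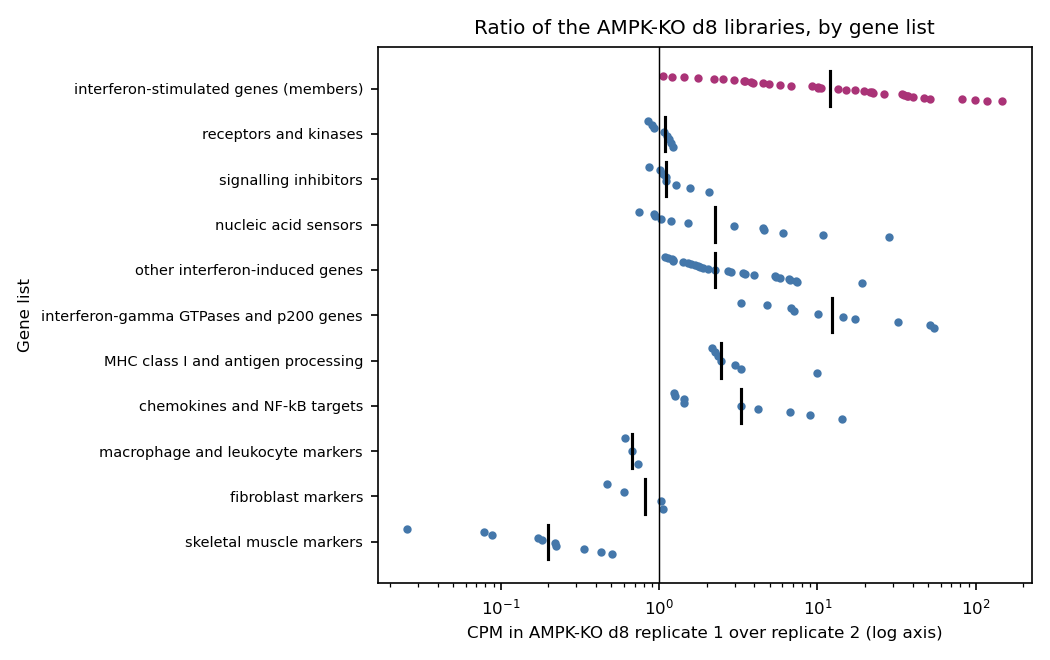
Ratio of CPM in AMPK-KO d8 replicate 1 over replicate 2 (log axis) for each gene with at least 10 counts in the higher library and more than 3 in the lower, by gene list, with black bars at list medians. The medians were 12 over 38 interferon-stimulated genes, 12.3 over interferon-gamma GTPases and p200 genes, 1.10 over receptors and kinases and 0.2 over muscle markers.

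The lists outside the 44 genes were also read in the comparisons tested across all genes. At d0, AMPK-KO cells had 1 of 12 sensors higher (*Aim2*, log2 fold change 2.30) and 3 of 10 muscle markers lower (*Myod1*, *Myog* and *Mymk*). There were 0 calls in the receptor, inhibitor, other interferon-induced, GTPase, antigen presentation and chemokine lists. Over all genes tested, 0.698% were called higher and 2.83% lower. In WT differentiation, *Stat3* (1.17), *Socs3* (1.68) and *Relb* (1.23) rose, and *Ptpn6* (−1.97), *Mb21d1* (−1.95) and *Mlkl* (−1.47) fell, each 1 gene of its list and direction. Over all genes tested, 5.78% were called higher and 6.58% lower, so 1 call in a list says little about that list. Of the markers, 8 of 10 for muscle and 2 of 4 for fibroblasts (*Dcn*, 5.48, and *Lum*, 5.69) rose. Fibroblast markers summed to 622 and 307 CPM in WT d0 and 1360 and 2870 in WT d8, and their part in the differences was not tested.

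In the TET2 lines the genotypes were compared first. The fit over 4 TET2-S97E and 4 TET2-WT libraries called 0 of the 29 genes that passed its filter in edgeR, beside 6.98% of 13433 genes (3.71% higher and 3.28% lower), with 5 at an unadjusted p under 0.05 (23.5% of all genes were) and 2 called by DESeq2. That fit takes the 2 libraries of a clone as separate samples. With counts summed per clone, 2 clones against 2, edgeR called 0 of 15126 genes and 0 of the 32 of the list tested, with 1575 (10.4%) and 2 at an unadjusted p under 0.05, and the lowest adjusted p of any gene was 0.257. A lost call in that fit therefore says nothing gene by gene. With single libraries the median was −0.05, against 0.01 over all genes. The list median turned to 0.27 without TET2-S97E clone 1 and was −0.429 without TET2-S97E clone 2. All 4 TET2-S97E libraries lay below all 4 TET2-WT libraries for 1 gene, *Rtp4* (8.14% of genes did), and above for 0 (7.15%). *Rtp4*, which encodes a receptor-transporting protein, was at 8.97 and 8.58 CPM in TET2-WT clone 1, 10.2 and 12.1 in clone 2, 3.12 and 3.95 in TET2-S97E clone 1 and 6.72 and 6.48 in clone 2. Outside the list, *Ifih1* had 64, 54, 94 and 114 counts in the TET2-WT libraries and 0, 1, 3 and 0 in the TET2-S97E libraries and was called lower with single libraries (fitted log2 fold change −6.12, adjusted p = 0.0061 from edgeR), and with clones the size was close (−6.21, adjusted p = 0.277). With single libraries only, *Ifitm3* (log2 fold change −0.999), *H2-D1* (−0.56), *Epsti1* (−2.31), *Pias3* (−0.84) and *Nfkb1* (−0.76) were also called lower, as was *Tek* of the endothelial markers (−1.93), and *Ifi207* (1.46) and 7 of 10 muscle markers higher. With clones the same counts were summed, so close sizes, that of *Ifih1* included, were fixed in advance and are no second support. Examples are −1.02 for *Ifitm3* and 1.48 for *Ifi207*, and 0 genes passed in that fit.

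The clones of TET2-S97E were then set against each other. Between clone 2 and clone 1, 8 of 31 genes were called, 7 higher in clone 2 (*Ifit3*, *Ifit3b*, *Irf1*, *Lgals9*, *Ifi27*, *Gbp2* and *Sp100*) and 1 lower (*Tor3a*), beside 6.17% of all genes (3.35% higher and 2.82% lower). The clone values were known when the genes were listed, so these calls describe the clones and test nothing about the list. The count was 2 without TET2-S97E clone 1 replicate 1, 3 without its replicate 2 and 5 without either library of clone 2, and the share of all genes called fell as well, to 3.15%, 3.36%, and 3.74% and 3.65%. Both clone 2 libraries lay above both clone 1 libraries for 24 of the 31 genes (26.3% of all genes) and below for 3 (21.3%), *Tor3a*, *Trim25* and *Ifit2*. The median log2 fold change was 0.80, against 0.03 over all genes. *Ifit3* had a mean CPM 8.61-fold higher in clone 2, *Sp100* 10.0-fold, *Gbp2* 6.60-fold, *Ifit1* 5.84-fold and *Lgals9* 4.04-fold, and *Tor3a* had a ratio of 0.574. *Ifit3b* had 1 count in clone 1 and 50 in clone 2 over both libraries, a ratio of 50.2 per unit depth with a counting interval of 8.61 to 2020. *Usp18* had 4 and 35 counts, a ratio of 8.79 (3.14 to 34.1).

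The highest *Ifit3* level in TET2-S97E clone 2 was 6.97 CPM, beside 221 CPM in AMPK-KO d8 replicate 1 of the other table. Muscle markers moved with the clones as well, summing to 8230 and 3770 CPM in clone 1 and 2790 and 1050 in clone 2, with *Myod1*, *Des* and *Myh3* called lower in clone 2. Fibroblast markers summed to 437 and 374 CPM in clone 1 and 1330 and 740 in clone 2, with *Dcn* (log2 fold change 1.92) and *Lum* (3.51) called higher, and *Cdh5* of the endothelial markers was called lower. The part of these markers in the difference was not tested. Also higher in clone 2 by the same fit were *Irgm1* (log2 fold change 1.26), *Ifi47* (2.49), *Samd9l* (1.14), *Tlr3* (1.45), *Vcam1* (1.37), *Socs3* (0.91) and *Jak2* (0.72), and *Ifi207* (−1.29), *Aim2* (−0.87) and *Ifitm1* (−1.58) were lower.

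The clones of TET2-WT were called different in 0 of 31 genes by edgeR, beside 0.858% of all genes, with 4 at an unadjusted p under 0.05 (20.5% of all genes were) and 2 called by DESeq2. Clone 2 lay above clone 1 without overlap for 7 genes (26% of all genes) and below for 7 (27.8%). Where both libraries of the higher clone held 10 counts or more, the ratios of mean CPM farthest from 1 were those of *Sp100* (4.24), *Ifi27l2a* (0.379) and *Xaf1* (0.479). Over both libraries *Sp100* had 24 counts in clone 1 and 96 in clone 2. The median log2 fold change was 0.04. Outside the list, 3 of 27 other interferon-induced genes were called higher in clone 2, *Samd9l* (log2 fold change 1.28), *Phf11b* (3.02) and *Phf11d* (2.93), beside 0.463% of all genes, and 0 lower. Reads of the last pair, which are near copies, could be split between them. Muscle and fibroblast markers moved with these clones too, with *Myod1*, *Col1a1* and *Lum* called higher in clone 2, and their part was not tested. Whether the clone difference in TET2-S97E exceeds that in TET2-WT was not tested.

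**Figure D5:**
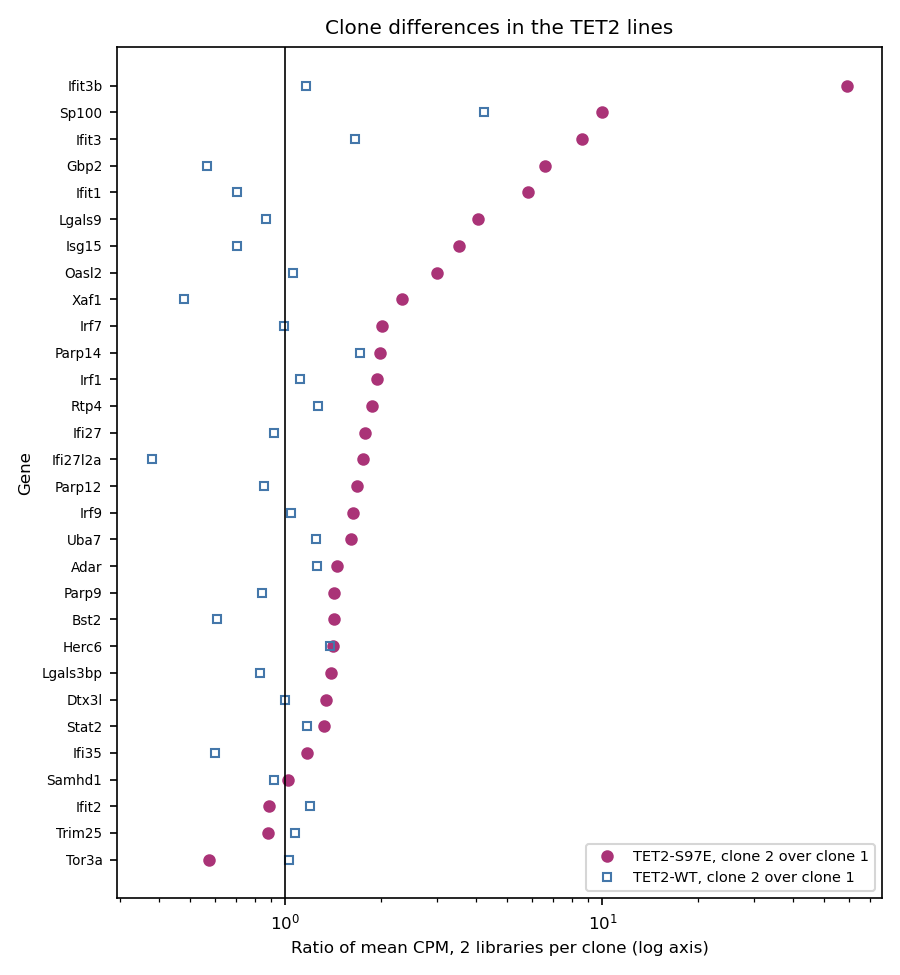
Ratio of mean CPM in clone 2 over clone 1 (log axis) for the 30 genes that average at least 10 counts over the TET2 libraries, as filled circles for TET2-S97E and open squares for TET2-WT, 2 libraries per clone. The ratio was above 1 in 27 of 30 genes in TET2-S97E and in 15 of 30 in TET2-WT, and the point of *Ifit3b* in TET2-S97E rests on 1 count in clone 1.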

How the data were processed

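RNA was measured by sequencing of rRNA-depleted total RNA in 16 libraries. Per the study's methods and the submitters' processing notes, the authors converted base calls with bcl2fastq 2.17, trimmed reads with Trim Galore 0.4.5, aligned them to mm10 with STAR 2.5.3a and counted them per gene with featureCounts 1.5.3. The deposited values are raw counts per gene, without normalization, in 1 table of AMPK genotypes and 1 of TET2 clones. The strand setting and the handling of reads that map to several places are not given in the sources used here, which bears on near copies (*Ifit3* and *Ifit3b*) and overlapping genes. Of the 49585 identifiers, 49326 matched GENCODE M21, from which symbols and exon lengths were taken.

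Counts were fitted with edgeR 4.0.16 (filter on low counts, TMM scaling, quasi-likelihood test) in R 4.3.3, 1 fit per table over all 8 of its libraries, with Benjamini-Hochberg adjustment over all genes and a threshold of 0.05. DESeq2 1.42.0 was an alternative, as were no TMM scaling, no filter, at least 10 counts in every library, fits within 1 day, leaving out each library or clone, counts summed per clone, and a replicate block. The difference of AMPK-KO effects, with its alternatives, was chosen after seeing the data. A floor of 3 counts stood for 0, and intervals at 95% cover counting error only. With 1 library against 1, a gene was counted past 4-fold with at least 10 counts in the higher one. For 2 libraries against 2, an exact two-sided permutation test cannot go below 0.333, so single genes have no test of that kind. The steps were tested on simulated data.

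In the table of AMPK genotypes the deviations of same-numbered libraries from their group means correlated at 0.129 to 0.392 over the 6 pairs of groups, all above 0.1. No label says what the numbers mark, and correlations of this size do not establish a pairing. The numbers were therefore taken as a possible pairing only. The main fits were unpaired, and the pairing enters as the replicate block among the alternatives. Replicates differed by more than sampling noise (chi-square per degree of freedom 29.4 to 107).

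The 44 genes and all other lists were chosen with earlier results of these data known. Values are given in full for the 2 genes of highest mean CPM in each role, the 3 largest ratios in the AMPK-KO d8 pair and between the clones of each TET2 genotype, and any gene called at d0 or in WT differentiation, and other genes were named after their values were seen. Some genes of the other lists are not reported here.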

Additional observations from a re-analysis of the deposited data

How the results depend on the processing

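Of 207 values recomputed under the alternatives, 155 counts of calls stayed within 1.5 times, or values stayed on their side of the threshold or moved by less than the spread (1.44 in log2 for medians of the AMPK table, which holds the library that stood apart, and 0.188 in the TET2 table). No called gene changed direction, but 13 of 86 recomputed medians had the other sign. The percentages below are shares of all genes called in the same fit. AMPK-KO against WT at d0 had 0 calls among the 44 genes in edgeR, 1 with DESeq2 (9.72%), 10 without the filter on low counts (8.08%), 1 with d0 libraries alone (2.54%) and 0 to 4 with 1 library left out. At d8 the 3 calls became 21 with DESeq2 (11.6%), 35 without the filter (9.98%), 0 with at least 10 counts in every library (2.41%), 1 with d8 libraries alone (5.61%) and 0 to 31 with 1 library left out (31 without AMPK-KO d8 replicate 2, 2 without replicate 1), and the median log2 fold change ran from 0.478 to 3.56. For WT d8 against d0 the 1 call became 2 with DESeq2 (19.3%) and 11 without the filter (13.1%). With 1 library left out, some fits of this comparison called almost no genes at all, so no range of calls is given for them. The difference of AMPK-KO effects, added after seeing the data, went from 0 genes to 60 with DESeq2 and to 4 to 6 with 1 AMPK-KO d8 library left out. TET2-S97E against TET2-WT went from 0 calls to 2 with DESeq2 (13.6%), 1 without TET2-S97E clone 1 (5.63%), 3 without clone 2 (8.42%), 4 with the mean of the clone groups (17.7%) and 0 with counts summed per clone (0% of 15126 genes). Its median of −0.05 was 0.27 without clone 1 and −0.429 without clone 2. The 8 calls between TET2-S97E clones became 5 with at least 10 counts in every library (5.94%) and 2 to 8 with 1 library left out. Between TET2-WT clones the 0 calls became 2 with DESeq2 (6.18%) and 3 without the filter (6.36%), and the median of 0.04 ran from −0.206 to 0.0932 with 1 library left out. Without TMM scaling the summed level was 535.3 CPM in TET2-S97E clone 1 replicate 1 and 708.6 in clone 2 replicate 2. Without the filter more low-count genes enter the test. The cause of the other shifts was not tested. Where a clone or group was left with 1 library, that library was assumed to vary like the other groups. The share of all genes called moved in those fits as well, so their counts say little about the list.

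With the replicate block as pairing, calls in the table of AMPK genotypes numbered 0 at d0 (5.16% of all genes), 3 at d8 (7.98%), 2 of them shared with the 3 above, and 1 in WT differentiation (16.5%), the same gene. In the TET2 table same-numbered libraries correlated at −0.0688 to 0.551, with 4 of 6 pairs of groups above 0.1 and the highest between the TET2-S97E clones, so they were not taken to pair across the table. There the block moved the calls between TET2-S97E clones from 8 to 12 (10.7% of all genes) and between TET2-WT clones from 0 to 1 (4.68%), with 0 between genotypes.

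Groups of 2 libraries, and 1 library that departs from its partner, limit what these data can show. Of 44 genes, 6 did not pass the filter in the AMPK table and 15 in the fit of TET2 genotypes, and levels under 3 counts were not detectable at this depth.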
